A study of Mus musculus with 8 samples.

Results

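Expression of 23626 autosomal genes was compared between type II alveolar epithelial cells (AECII) of embryonic mouse lungs in which Fgfr2b signalling had been inhibited, called mutant after the labels, and WT AECII. The genes were those that a RefSeq table places on chromosomes 1 to 19, out of 24568 genes named on the arrays, and each was read from the spot with the highest mean signal over the 8 arrays of the series. Cells were isolated by fluorescence-activated cell sorting, and the series title gives E16.5 to E18.5 as the period. The 4 groups, each of 2 biological replicates, were mutant AECII, WT AECII, mutant AECI and WT AECI, AECI being the type I cells. The sources used here do not give the strain, the alleles, the agent that inhibited signalling, the age at isolation, the sorting markers or any pooling of embryos. Values are log2 signals from 1-colour arrays, with a median of 5.01, an upper quartile of 8.06 and a maximum of 15.99 on every array. Genes with a mean of 8 or above over the 8 arrays are called bright below.

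Fgfr2b, a splice form made in epithelia, is a receptor tyrosine kinase for fibroblast growth factors. Its main ligands in the lung, Fgf7 and Fgf10, come from the mesenchyme, and the receptor signals through the ERK cascade to transcription factors such as Etv4 and Etv5. The pathway is known for branching of the lung bud and for maintaining distal epithelial progenitors, from which both alveolar cell types arise. AECII are cuboidal cells that make, store and secrete surfactant, whereas AECI are thin cells that form the surface for gas exchange.

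The AECII label was checked against marker genes. Sftpc, the AECII-defining surfactant protein, stood at 15.91 and 15.93 in mutant AECII and at 15.90 and 15.89 in WT AECII, near the top of the scale. The club cell gene Scgb1a1 was nearly as bright, at 15.79 and 15.75 in mutant AECII and 15.90 and 15.92 in WT AECII. The ciliated cell regulator Foxj1 had signals of 11.11 and 11.60 in mutant AECII and 10.96 and 11.75 in WT AECII, so the sorted AECII of both genotypes held airway transcripts. Replicates correlated with r = 0.977 in mutant AECII and 0.975 in WT AECII, and 11.46% and 12.64% of genes differed more than 2-fold within these pairs. Xist, which coats the inactive X chromosome of females, stood at 4.42 and 4.28 in mutant AECII and 12.70 and 12.44 in WT AECII, and the Y-linked gene Uty at 7.07 and 6.71 in mutant AECII and 2.72 and 2.85 in WT AECII. Genotype and sex-linked expression therefore cannot be told apart in any comparison here, autosomal genes included.

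No autosomal gene passed limma's test after Benjamini-Hochberg adjustment over all genes (0 of 23626, 0.0%, with a smallest adjusted p of 0.396), against 3 of 24568 genes (0.0122%) with X and Y included. At an unadjusted p under 0.05, 1030 autosomal genes were counted (4.36%), of which 532 were higher (2.25%) and 498 lower (2.11%) in mutant AECII. In bright genes the unadjusted count was 207 of 7449 (2.78%), with 155 higher (2.08%) and 52 lower (0.698%). The groups did not overlap, both mutant arrays lying above both WT arrays, for 17.5% of autosomal genes, and lying below them for 18.2%; in bright genes the shares were 23.2% and 17.2%. More than a 2-fold difference of the means was found for 75 bright genes in the positive direction and 21 in the negative. The median log2 fold change was -0.005 over autosomal genes and 0.037 over bright ones. The 95% interval of a log2 fold change reached a median of 0.696 to either side in bright genes, so a change smaller than this was in general not detectable with 2 arrays a group. This interval is not adjusted for the number of genes, so the adjusted test can also miss changes larger than it. All differences named below are therefore given as values that did not pass the adjusted threshold, and p under 0.05 or 0.01 without the word adjusted means the unadjusted p of the same test.

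**Figure D1:**
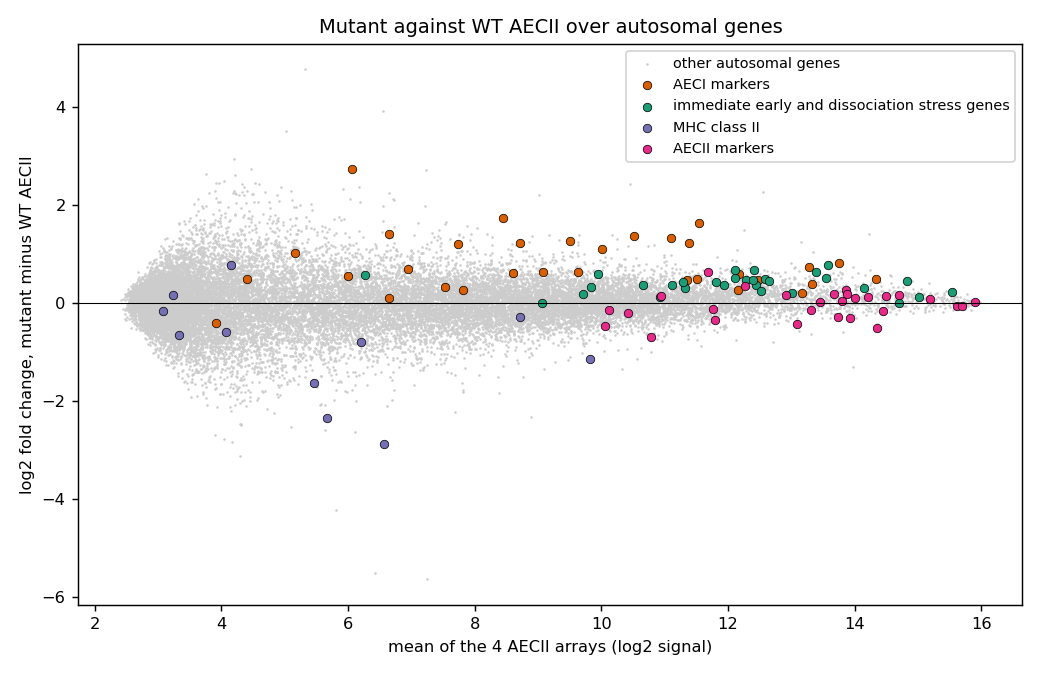
Log2 fold change of mutant over WT AECII (vertical axis) against the mean log2 signal of the 4 AECII arrays (horizontal axis), 1 point per autosomal gene. AECI markers lie mostly above 0, with a median of 0.63, AECII markers lie around 0, and the MHC class II genes are mostly dim and below 0.

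The pathway that was inhibited was examined first, from receptors and ligands to response genes. Fgfr2, the receptor gene, had signals of 12.40 and 12.15 in mutant AECII and 12.16 and 12.07 in WT AECII. These overlap, with a log2 fold change of 0.16 ± 0.26 (SE, n = 2 arrays per group), and 2 spots gave 0.03 and 0.16; the spots are not annotated to the Fgfr2b form, so they do not test the inhibition. Fgf7 and Fgf10, the mesenchymal ligands, were dim, with Fgf10 at 3.35 and 2.80 in mutant AECII and 2.99 and 2.999 in WT AECII. Fgf1, a ligand that binds all FGF receptors, was bright, at 13.60 and 13.95 in mutant AECII and 13.33 and 13.23 in WT AECII (log2 fold change 0.50). Fgfr1, the receptor more typical of mesenchyme, had 5.91 and 5.38 in mutant AECII and 4.68 and 3.55 in WT AECII. Its log2 fold change of 1.53 ± 0.49 was the only 1 of 24 ligands, receptors and cofactors with an unadjusted p under 0.05. Over all autosomal genes 4.36% had such a p, and Fgfr1 lies at dim signals. Fgf9, an epithelial ligand, was likewise non-overlapping, at 6.49 and 7.09 in mutant AECII and 6.27 and 5.58 in WT AECII. Of the 24, 6 were higher (25% against 17.5% of autosomal genes) and 2 lower (8.33% against 18.2%) without overlap.

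Among 30 genes known to respond to FGF signalling, the median log2 fold change was -0.07 (-0.125 without WT AECII replicate 2). Without overlap, 3 members were higher (10% against 17.5% of autosomal genes) and 11 lower (36.7% against 18.2%). Etv5 and Etv4, the ETS factors downstream of ERK, differed in opposite directions. Etv4 had 8.86 and 8.80 in mutant AECII and 9.67 and 9.01 in WT AECII, a log2 fold change of -0.51 (95% interval -1.24 to 0.22). Etv5 had 12.30 and 12.57 in mutant AECII and 12.09 and 12.12 in WT AECII, a log2 fold change of 0.34 (95% interval -0.31 to 0.98). The feedback phosphatase gene Dusp6 overlapped between the groups, at 11.66 and 11.95 in mutant AECII and 11.65 and 11.88 in WT AECII. The feedback inhibitors Spry1 and Spry2 also overlapped, with log2 fold changes of 0.02 and 0.19, and so did Sox9, a factor of distal tip progenitors, with -0.18.

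Bmp4, a ligand expressed at the distal tips, had the smallest p of the response genes. Its signals were 10.18 and 10.15 in mutant AECII and 11.20 and 10.96 in WT AECII, a log2 fold change of -0.92 ± 0.27 (limma adjusted p = 0.998), but the second bright spot of Bmp4 gave 0.003. Wnt7b, an epithelial WNT ligand, stood at 6.92 and 7.03 in mutant AECII and 7.48 and 7.44 in WT AECII. Ccnd1, the G1 cyclin induced by mitogens, stood at 7.85 and 7.88 in mutant AECII and 8.24 and 8.20 in WT AECII. Shh, the epithelial hedgehog ligand, differed by only -0.11 (95% interval -0.76 to 0.54). Lower signals without overlap occurred in Etv4, Bmp4 (in its brightest spot), Wnt7b, Ccnd1 and Shh, and Etv5 was higher without overlap. None of these passed the adjusted test. Of the response genes, 13 had a positive and 17 a negative log2 fold change.

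**Figure D2:**
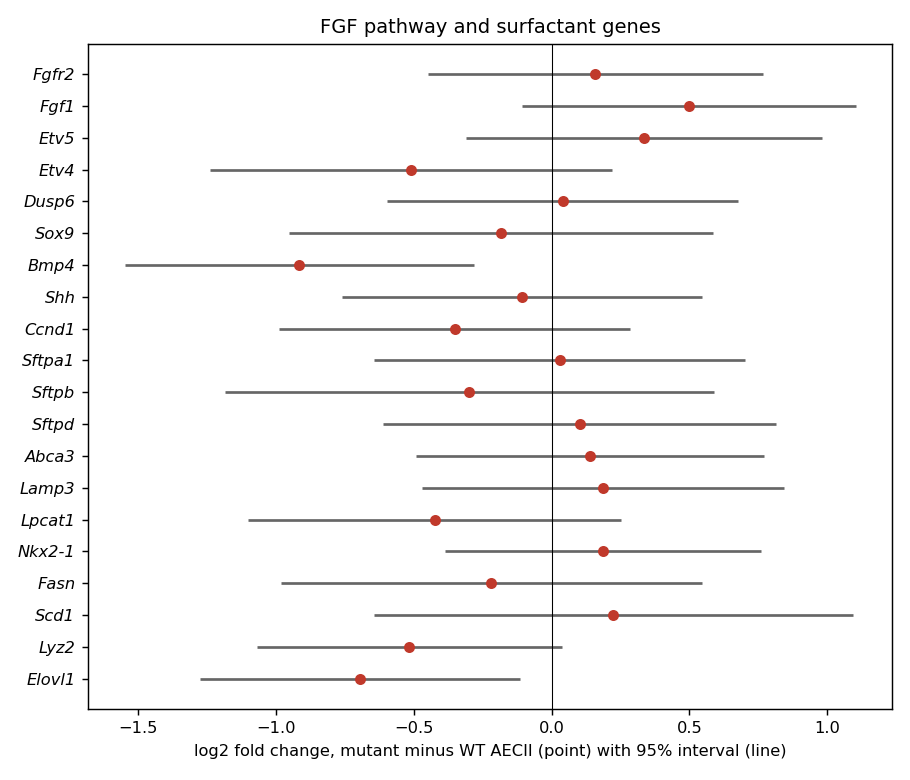
Log2 fold change of mutant over WT AECII with its 95% interval (horizontal axis, from limma, n = 2 arrays per group) for genes of the FGF pathway and of surfactant (vertical axis). The intervals of Bmp4 (-1.55 to -0.28) and Elovl1 (-1.27 to -0.12) leave out 0, and those of the other genes drawn hold it.

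The genes with the largest differences were taken from those with p under 0.01, no overlap and a mean of 8 or above in the higher of the AECII groups, provisional gene names left out. Since this filter uses the group where a gene is high, the genes it kept are named as examples and not counted. Spock2, a matrix proteoglycan, had 8.89 and 9.72 in mutant AECII and 8.13 and 7.03 in WT AECII, against 13.41 to 13.93 in AECI of both genotypes. Its log2 fold change was 1.72 ± 0.44 (limma adjusted p = 0.89), and its 2 bright spots gave 1.72 and 1.80. Clic5, an intracellular chloride channel protein of AECI, had 11.95 and 12.76 in mutant AECII and 11.14 and 10.31 in WT AECII. Akap5, a kinase anchoring protein, had 11.52 and 12.004 in mutant AECII and 10.57 and 10.29 in WT AECII, a log2 fold change of 1.33 ± 0.29 (limma adjusted p = 0.874). The mutant signals of all of these remained below those of AECI.

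Of 32 AECI markers, 31 had a positive and 1 a negative log2 fold change, and the median was 0.632, against 0.037 in bright genes. The groups did not overlap in 25 markers that were higher (78.1%, against 23.2% of bright genes) and in 1 that was lower (3.12%, against 17.2%), the dim neurotrophin gene Bdnf. At an unadjusted p under 0.05, 15 were higher (against 2.08% of bright genes) and 0 lower, and none (0) passed the adjusted test. This list and the others of this report were chosen with earlier results of these data known. Their shares therefore describe the members and test nothing. Hopx, a homeodomain-only cofactor used to trace AECI, had 11.75 and 12.24 in mutant AECII and 10.49 and 11.04 in WT AECII (log2 fold change 1.23). Pdpn, the surface protein podoplanin, had 10.48 and 10.63 in mutant AECII and 9.95 and 8.98 in WT AECII. Aqp5, the apical water channel, had 10.65 and 11.76 in mutant AECII and 10.03 and 9.65 in WT AECII. In each of these 3 genes the lower mutant array was above the higher WT array, and in Aqp5 the mutant replicates lay farther apart than in Hopx or Pdpn.

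Rtkn2 had the largest difference of the AECI markers, 6.90 and 7.95 in mutant AECII and 5.26 and 4.11 in WT AECII (log2 fold change 2.74 ± 0.48, limma adjusted p = 0.869). Col4a3 and Col4a4, collagen chains of the alveolar basement membrane, differed by 1.01 and 1.22. Col4a4 had 9.14 and 9.50 in mutant AECII and 8.08 and 8.13 in WT AECII, so that the replicates of each genotype lay close together, although its other bright spot gave 0.58. Cav1, the main protein of caveolae, had 9.91 and 10.36 in mutant AECII and 9.16 and 8.57 in WT AECII. Vegfa, which AECI supply to capillaries, differed by 0.81, and Ager, at 14.41 and 14.75 in mutant AECII and 14.16 and 14.05 in WT AECII, by 0.48. Markers with overlapping groups were Cldn18, the alveolar claudin, S100a6, Gprc5a, Igfbp2, Limch1 and Pxdc1. The mean level of the list was 9.73 and 10.14 in mutant AECII and 9.22 and 9.03 in WT AECII. In RNA of many cells, more AECI among the sorted cells and more of these transcripts per AECII cannot be told apart.

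**Figure D3:**
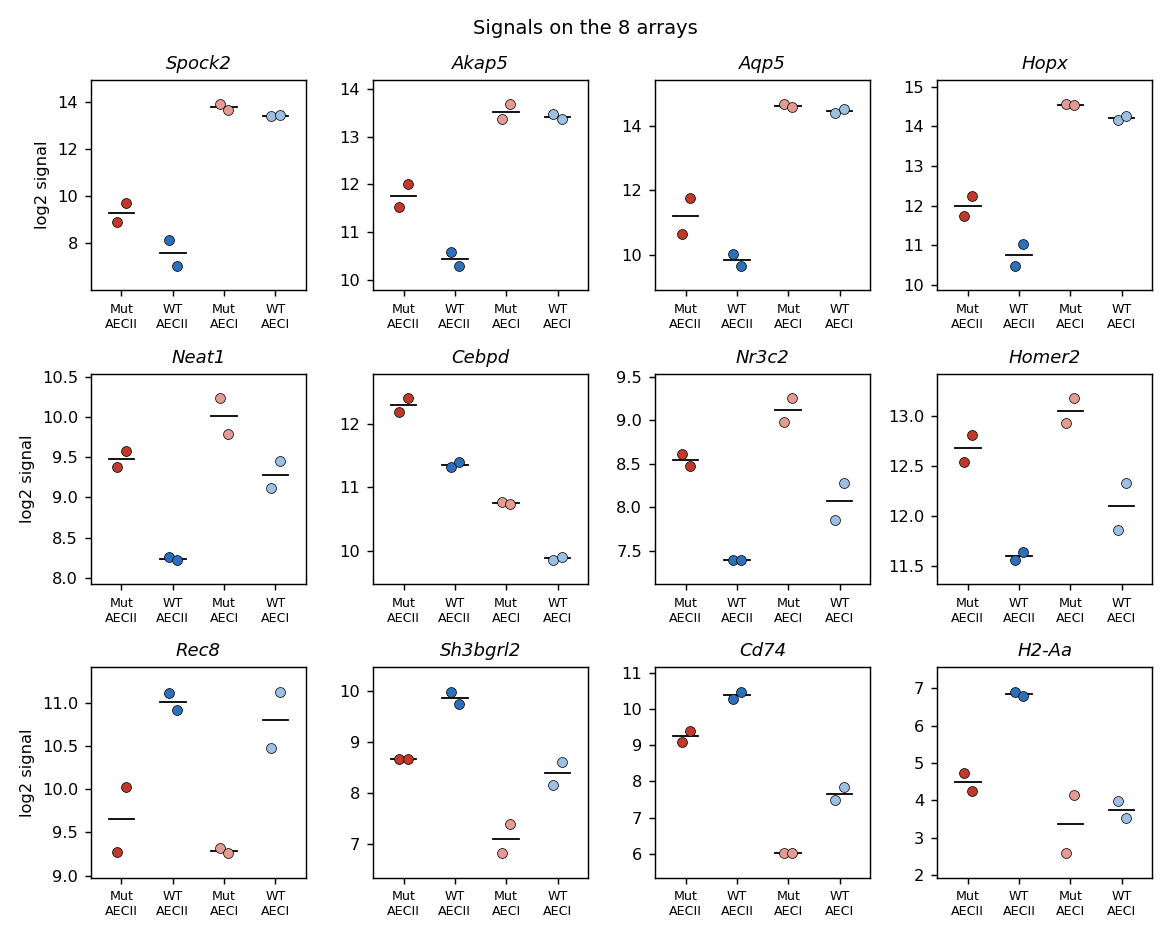
Log2 signal (vertical axis) of 12 genes on the 8 arrays, with mutant left of WT in AECII and then in AECI. Points are arrays (n = 2 per group) and lines are group means. The 4 AECI markers of the top row are far brighter in AECI, whereas Neat1, Cebpd, Nr3c2, Homer2, Rec8, Sh3bgrl2 and Cd74 differ the same way between genotypes in both populations.

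Other genes with higher signals in mutant AECII had varied roles. Psca, a GPI-anchored surface protein, had the largest difference under the same rule, with 7.42 and 9.61 in mutant AECII and 4.09 and 5.12 in WT AECII (log2 fold change 3.91 ± 0.69, limma adjusted p = 0.869). The 2 mutant arrays differed from each other by more than 2 on the log2 scale, yet both were above the WT arrays, and Psca was dim in AECI (3.34 to 5.05). Sema6d, a transmembrane semaphorin, had 8.01 and 9.17 in mutant AECII and 6.45 and 5.29 in WT AECII, and Sema3a, a secreted one, had 7.04 and 7.66 in mutant AECII and 6.07 and 5.83 in WT AECII. Edn3, an endothelin peptide, had 8.57 and 8.76 in mutant AECII and 7.17 and 7.02 in WT AECII, a log2 fold change of 1.57 ± 0.29 with narrow replicates. Batf, an AP-1 family factor, had 8.64 and 8.34 in mutant AECII and 6.99 and 7.29 in WT AECII. Pmp22, a tetraspan membrane protein, Igfbp7, an insulin-like growth factor binding protein, Pvrl3, a nectin adhesion molecule, and Rnf150 differed by 1.39, 1.31, 1.48 and 1.97. Akr1c14, an aldo-keto reductase that acts on steroids, had 8.13 and 8.39 in mutant AECII and 7.03 and 6.89 in WT AECII.

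Genes with several bright spots allowed a check within the array. Of 2233 autosomal genes with 2 or more bright spots, every spot was higher without overlap in 194 (8.69%) and lower in 99 (4.43%). Besides Spock2, Sema3a, Pmp22, Aqp5, Akap5 and Cav1, the genes with the largest such differences were Fbln5, an elastic fibre protein (1.39 and 1.55 in its 2 spots), and Neat1, the long RNA that builds nuclear paraspeckles (1.09 and 1.24). In the negative direction they were Sh3bgrl2, an SH3-binding glutamate-rich protein (-1.497 and -1.21), Hdc, which makes histamine (-1.005 and -0.80), Elovl1, an elongase of very long chain fatty acids (-0.79 and -0.70), Lcn2, the siderophore-binding lipocalin (-0.79 and -0.60), Tom1l1, Chmp6, Mirg and Polr2i. Hdc, which AECII express, had 12.07 and 12.55 in mutant AECII and 13.16 and 13.06 in WT AECII. Spots of a gene can share cross-hybridising sequence and the same RNA, so this is no further replicate.

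Surfactant genes differed little, and their intervals set the size of a change that could have been missed. Over 18 genes of surfactant proteins and their processing the median log2 fold change was 0.039, or 0.004 with quantile normalization, with 4 members higher and 4 lower without overlap (22.2% each, against 23.2% and 17.2% of bright genes) and 0 at an unadjusted p under 0.05. Sftpa1 had 13.96 and 13.68 in mutant AECII and 13.76 and 13.82 in WT AECII, and Sftpd 14.13 and 13.97 in mutant AECII and 14.01 and 13.90 in WT AECII. Sftpb, the surfactant protein that is essential at birth, had 13.88 and 13.30 in mutant AECII and 13.69 and 14.09 in WT AECII, with an interval of -1.19 to 0.59. Abca3, the lipid transporter of lamellar bodies, had an interval of -0.49 to 0.77, and Lamp3, a lamellar body membrane protein, one of -0.47 to 0.84. Slc34a2, the phosphate transporter, lay near the top of the scale at 15.73 and 15.61 in mutant AECII and 15.77 and 15.69 in WT AECII, so no fold change is given. A difference larger than 2-fold therefore lay outside the intervals of Sftpa1, Sftpd, Abca3 and Lamp3, but inside that of Sftpb on the negative side.

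Of 29 AECII markers, 15 were positive and 14 negative, with a median of 0.02, which was -0.094 with quantile normalization and -0.075 without mutant AECII replicate 1. Without overlap, 6 were higher (20.7% against 23.2% of bright genes) and 9 lower (31% against 17.2%). At p under 0.05, 1 was higher (against 2.08% of bright genes) and 1 lower (against 0.698%). These were Pi4k2b, a phosphatidylinositol kinase (12.16 and 11.87 in mutant AECII, 11.54 and 11.20 in WT AECII), and Elovl1 (10.41 and 10.45 in mutant AECII, 11.26 and 10.997 in WT AECII). Lpcat1, which makes the dipalmitoyl lecithin of surfactant, had 12.94 and 12.82 in mutant AECII and 13.52 and 13.08 in WT AECII. Lyz2, a lysozyme of mature AECII and macrophages, had 14.15 and 14.05 in mutant AECII and 14.61 and 14.62 in WT AECII, though a second bright spot gave 0.07. Nkx2-1 and Cebpa, transcription factors of the AECII program, differed by 0.19 and 0.07. The aspartic protease gene Napsa, which processes Sftpb protein, had 13.62 and 13.91 in mutant AECII and 14.08 and 14.08 in WT AECII. The AECII markers thus showed no common direction, in contrast to the AECI markers of the same arrays; the difference between the lists was not tested.

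Genes of lipid synthesis, which supply surfactant, were split. Of 36, 6 were higher (16.7% against 23.2% of bright genes) and 9 lower (25% against 17.2%) without overlap, with a median of 0.046, or -0.024 when a gene's spots were averaged. Lpin1, a phosphatidate phosphatase, had 7.44 and 7.09 in mutant AECII and 6.30 and 6.26 in WT AECII (log2 fold change 0.98 ± 0.27, limma adjusted p = 0.964). Fasn, the fatty acid synthase, had 13.13 and 12.96 in mutant AECII and 13.20 and 13.33 in WT AECII, and Scd1, which desaturates stearate, had 14.37 and 14.41 in mutant AECII and 14.05 and 14.28 in WT AECII. Other lipid enzymes were among the genes with the largest negative differences under the rule above. Acoxl, an acyl-coenzyme A oxidase-like protein, had 6.77 and 7.03 in mutant AECII and 8.53 and 8.94 in WT AECII (log2 fold change -1.83 ± 0.42, limma adjusted p = 0.89). Elovl7, a fatty acid elongase, had 8.13 and 8.48 in mutant AECII and 9.38 and 9.21 in WT AECII. Neither gene overlapped between the genotypes, and Acoxl was dim in AECI (4.76 to 5.92).

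The other genes with lower signals in mutant AECII under that rule had varied roles. Phgr1, a proline, histidine and glycine-rich protein of epithelia, had 6.50 and 6.66 in mutant AECII and 8.72 and 8.89 in WT AECII, the largest difference in this direction among the genes that met the rule (-2.23 ± 0.56). Sec24d, a coat protein of vesicles that leave the endoplasmic reticulum, had 8.66 and 8.19 in mutant AECII and 9.64 and 9.93 in WT AECII. Asns, which makes asparagine and is induced by the amino acid response, had 7.02 and 7.35 in mutant AECII and 8.43 and 8.60 in WT AECII (log2 fold change -1.33, limma adjusted p = 0.89). In each of these 3 genes the higher mutant array was below the lower WT array. Rec8, a cohesin subunit of meiosis, had 9.28 and 10.02 in mutant AECII and 11.11 and 10.91 in WT AECII. Dcakd, a dephospho-coenzyme A kinase domain protein, had 9.19 and 9.16 in mutant AECII and 10.05 and 10.36 in WT AECII. Grin2b, a glutamate receptor subunit of neurons, differed by -1.03 in its brightest spot but by 0.08 in the mean of its spots.

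Genes of MHC class II, which present peptides to CD4+ T cells and which AECII are known to express, had mostly lower signals in mutant AECII, at dim levels. Because their promoters share a known module of X and Y boxes, the promoter windows of the member with the smallest p, H2-Aa, and of its neighbour H2-Eb1 are shown. They run from 250 bases before to 50 after the start in RefSeq (GRCm38.p6), with the CRE TGACGTCA and the Y box core ATTGG, searched on both strands, in capitals.
H2-Aa, chr17:34287774-34288073, minus strand: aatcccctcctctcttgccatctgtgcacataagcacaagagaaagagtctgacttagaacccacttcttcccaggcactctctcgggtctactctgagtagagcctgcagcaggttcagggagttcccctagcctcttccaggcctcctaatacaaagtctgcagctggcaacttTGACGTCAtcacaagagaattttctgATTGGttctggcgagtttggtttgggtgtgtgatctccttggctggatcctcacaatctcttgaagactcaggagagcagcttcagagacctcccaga
H2-Eb1, chr17:34305617-34305916, plus strand: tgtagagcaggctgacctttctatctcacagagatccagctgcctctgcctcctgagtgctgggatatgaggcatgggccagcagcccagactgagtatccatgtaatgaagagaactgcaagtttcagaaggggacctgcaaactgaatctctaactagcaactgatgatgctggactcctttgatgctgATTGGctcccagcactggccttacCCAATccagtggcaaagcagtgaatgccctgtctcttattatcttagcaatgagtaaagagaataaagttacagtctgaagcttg
TGACGTCA occurs in 1.83% and ATTGG in 37.3% of 31396 autosomal windows of this length, and the searched motifs do not overlap each other in these windows. Of 8 class II members with a window, 7 held the Y box core and 1, H2-Aa, the CRE. These are counts of genes, whereas the shares are of windows, so the counts are not set against the shares. These matches are descriptions of the letters only.

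Of the 11 class II genes, 9 had a negative log2 fold change and 7 were lower and 0 higher without overlap (63.6% against 18.2% of autosomal genes), with a median of -0.652. Averaging a gene's spots gave a median of -0.158, and without mutant AECII replicate 1 it was -0.423. At an unadjusted p under 0.05, 3 were lower (against 2.11% of autosomal genes). Cd74, the invariant chain and the brightest member, had 9.10 and 9.39 in mutant AECII and 10.28 and 10.49 in WT AECII, a log2 fold change of -1.14 ± 0.27 (limma adjusted p = 0.89). H2-Aa, the alpha chain of I-A, had 4.74 and 4.25 in mutant AECII and 6.91 and 6.79 in WT AECII (log2 fold change -2.35 ± 0.52). H2-DMa, which loads peptides, had 4.33 and 4.96 in mutant AECII and 6.02 and 6.54 in WT AECII. The mutant signals of H2-Aa and H2-DMa lie below the array median of 5.01, where no detection limit is known. H2-Ab1, the beta chain of I-A, had 6.71 and 3.55 in mutant AECII and 8.51 and 7.50 in WT AECII, and its mutant replicates lay far apart. H2-DMb1, the partner of H2-DMa, differed by only -0.29, Ciita, the transactivator of the class, by -0.80 in its brightest spot and 0.17 in the mean of its spots, and H2-Eb1, shown above, overlapped (-0.59).

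Leukocytes also express class II genes, and their markers were read beside these. Ptprc, the pan-leukocyte antigen CD45, had 6.65 and 6.96 in mutant AECII and 6.86 and 6.89 in WT AECII. Of 22 leukocyte genes, 2 were higher (9.09% against 17.5% of autosomal genes) and 6 lower (27.3% against 18.2%) without overlap. Cd74, counted above as a class II gene, is also in this list and among the 6 lower, so the 2 lists are not separate. Their median was -0.08, which was -0.237 without mutant AECII replicate 1 and 0.024 without mutant AECII replicate 2, with mean levels of 5.89 and 5.73 in mutant AECII and 5.99 and 6.01 in WT AECII. Cx3cr1, a chemokine receptor of monocytes and macrophages, was the member with the largest difference, 3.05 and 3.06 in mutant AECII and 5.34 and 5.72 in WT AECII (limma adjusted p = 0.89). The part of leukocyte RNA in the class II values was not tested.

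Immediate early and stress genes, many of which respond to cell dissociation, were slightly but widely brighter in mutant AECII. Of 30 members, 29 had a positive log2 fold change, 22 were higher and 0 lower without overlap (73.3% against 23.2% of bright genes), and the median was 0.396. Only 1 of the 30 was higher at p under 0.05 (against 2.08% of bright genes). This was Egr2, a zinc finger factor, at 13.64 and 13.75 in mutant AECII and 13.10 and 13.04 in WT AECII. Fos had 12.05 and 12.18 in mutant AECII and 11.68 and 11.83 in WT AECII, and Jun 12.56 and 12.71 in mutant AECII and 12.25 and 12.27 in WT AECII. Gadd45b, a stress sensor, had 10.20 and 10.28 in mutant AECII and 9.71 and 9.59 in WT AECII. Junb, an AP-1 subunit, had a log2 fold change of only 0.01. The mean level of the list was 12.30 and 12.30 in mutant AECII and 11.92 and 11.91 in WT AECII. Whether handling of the cells differed between the genotypes is not given in the sources used here, and its part was not tested.

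Genes induced by glucocorticoids, the hormones that mature the fetal lung, were also mostly positive. Of 19, 11 were higher (57.9% against 23.2% of bright genes) and 2 lower (10.5% against 17.2%) without overlap, with a median of 0.33. At an unadjusted p under 0.05, 3 were higher (against 2.08% of bright genes). Nr3c2, the mineralocorticoid receptor, is counted in this list although it is a receptor and not an established induced gene. It had the largest difference of the list, 8.62 and 8.47 in mutant AECII and 7.40 and 7.40 in WT AECII. Its log2 fold change was 1.14 ± 0.27 (limma adjusted p = 0.89). Cebpd, a factor induced by glucocorticoids in lung epithelium, had 12.18 and 12.40 in mutant AECII and 11.31 and 11.39 in WT AECII (0.94 ± 0.24). Ddit4, an inhibitor of mTORC1, had 13.70 and 14.004 in mutant AECII and 12.60 and 13.04 in WT AECII. Fkbp5, a classic target of the glucocorticoid receptor, overlapped, at 7.68 and 7.31 in mutant AECII and 7.83 and 7.58 in WT AECII, and Errfi1, a feedback inhibitor of EGFR, differed by 0.60. The direction of the list was thus not shared by all its members.

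Of 37 transcription factors of lung epithelium, 28 of them bright, 18 were higher without overlap (48.6%, against 17.5% of autosomal and 23.2% of bright genes). In the other direction 1 was lower without overlap (2.7%, against 18.2% and 17.2%). The median was 0.203 (0.305 without mutant AECII replicate 1). Besides Hopx and Cebpd, both higher, none had p under 0.05 (2.08% of bright genes were higher at this p). Elf3, an epithelial ETS factor, had 11.70 and 11.66 in mutant AECII and 11.12 and 11.16 in WT AECII. Grhl2, a factor of epithelial junctions, had 11.48 and 12.04 in mutant AECII and 11.15 and 11.22 in WT AECII. Elf5, a factor of distal progenitors, overlapped, with a log2 fold change of -0.02, or 0.56 in the mean of its spots.

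**Figure D4:**
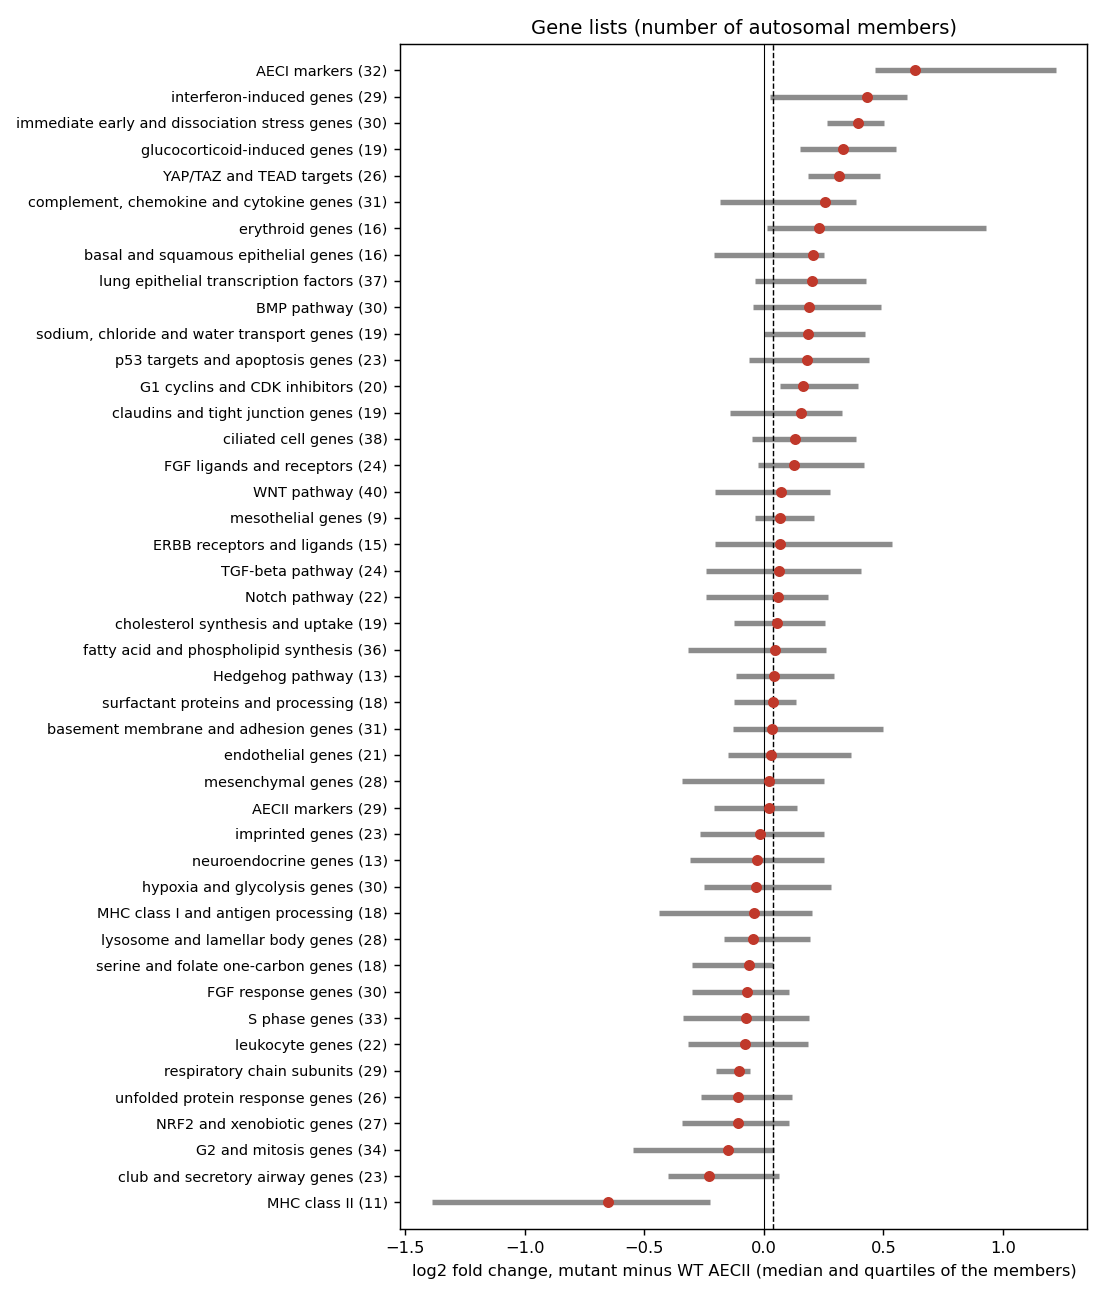
Median (points) and quartiles (bars) of the log2 fold change of mutant over WT AECII (horizontal axis) for 44 gene lists (vertical axis, with the number of autosomal members). The dashed line is the median of bright genes, 0.037; AECI markers (0.632) lie at the top and MHC class II genes (-0.652) at the bottom.

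Signalling genes outside the FGF pathway gave scattered values. Wnt3a, a canonical WNT ligand, had 5.70 and 6.63 in mutant AECII and 4.54 and 3.6 in WT AECII (log2 fold change 2.10 ± 0.49, limma adjusted p = 0.89) and 9.78 to 10.68 in AECI. Wnt5b, a non-canonical ligand, had 4.67 and 5.45 in mutant AECII and 6.20 and 7.59 in WT AECII, and Lgr5, a WNT target and receptor, had 5.83 and 5.98 in mutant AECII and 6.84 and 7.15 in WT AECII. Of 40 WNT pathway genes, 9 were higher and 7 lower without overlap (22.5% and 17.5%, near the 17.5% and 18.2% of autosomal genes). Tgfbi, a matrix protein induced by TGF-beta, had 8.45 and 6.998 in mutant AECII and 10.07 and 10.03 in WT AECII (log2 fold change -2.33 ± 0.70). Of 30 BMP pathway genes, 22 had a positive log2 fold change, and 12 were higher (40% against 17.5% of autosomal genes) and 2, Bmp4 and Bmpr1b, lower without overlap (6.67% against 18.2%). Id1, a BMP target, had 8.77 and 8.82 in mutant AECII and 7.50 and 8.56 in WT AECII. Of 26 YAP/TAZ and TEAD targets, 22 had a positive log2 fold change, with a median of 0.314, and 8 were higher (30.8% against 23.2% of bright genes) and 2 lower (7.69% against 17.2%) without overlap. Ccn2, a matricellular target, had 8.98 and 9.77 in mutant AECII and 8.59 and 8.45 in WT AECII, and Tead1, the DNA-binding partner, had 11.49 and 11.57 in mutant AECII and 10.83 and 10.83 in WT AECII.

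Genes of energy and protein handling gave small differences. Of 29 autosomal subunits of the respiratory chain, 26 had a negative log2 fold change, but the median was only -0.103 (-0.194 without mutant AECII replicate 1). Without overlap, 10 were lower (34.5% against 17.2% of bright genes) and 1 higher (3.45% against 23.2%), and 0 had an unadjusted p under 0.05. Sdhc, a succinate dehydrogenase subunit, had the largest difference, with 11.61 and 11.43 in mutant AECII and 11.90 and 12.35 in WT AECII. Of 26 genes of the unfolded protein response, 16 had a negative log2 fold change, and 10 were lower (38.5% against 17.2% of bright genes) and 4 higher (15.4% against 23.2%) without overlap. Asns and Sdf2l1, a chaperone cofactor, were lower at an unadjusted p under 0.05 (against 0.698% of bright genes). Sdf2l1 had 10.50 and 10.64 in mutant AECII and 11.42 and 11.25 in WT AECII. Of 29 interferon-induced genes, most of them dim, 22 had a positive log2 fold change, and 13 were higher (44.8% against 17.5% of autosomal genes) and 3 lower (10.3% against 18.2%) without overlap, with a median of 0.433, or 0.184 when a gene's spots were averaged. Igtp, a GTPase, had 5.56 and 6.39 in mutant AECII and 4.64 and 4.81 in WT AECII. Ltf, the iron-binding secreted protein lactoferrin, had the smallest p of the complement, chemokine and cytokine list, with 4.84 and 5.78 in mutant AECII and 2.90 and 3.24 in WT AECII (limma adjusted p = 0.81), at dim signals.

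The airway transcripts in the AECII arrays were followed as well. Of 23 club and secretory genes, 10 were lower (43.5% against 18.2% of autosomal genes) and 2 higher (8.7% against 17.5%) without overlap. The median was -0.23, or -0.133 without WT AECII replicate 2. Scgb3a1, a secretoglobin of upper airways, had 8.58 and 7.55 in mutant AECII and 8.73 and 9.85 in WT AECII. Scgb3a2, its distal relative, had 14.41 and 14.65 in mutant AECII and 14.67 and 14.87 in WT AECII. Reg3g, an antibacterial lectin, had 3.59 and 2.56 in mutant AECII and 4.86 and 6.22 in WT AECII, at dim signals. Cyp2f2, a monooxygenase of club cells, overlapped (log2 fold change 0.13). Of 38 ciliated cell genes, 23 had a positive log2 fold change, and 5 were higher (13.2%) and 1 lower (2.63%) without overlap, both shares below those of autosomal genes (17.5% and 18.2%), with a median of 0.129, which was -0.284 without WT AECII replicate 1 and 0.401 without WT AECII replicate 2; Tekt1, a microtubule protein of cilia, overlapped at 8.62 and 9.62 in mutant AECII and 7.38 and 8.71 in WT AECII.

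Cycling and non-epithelial cells were read in the same way. Of 34 genes of G2 and mitosis, 10 were lower (29.4% against 18.2% of autosomal genes) and 4 higher (11.8% against 17.5%) without overlap, with a median of -0.151. Of 33 S phase genes, 16 had a positive and 17 a negative log2 fold change, and 10 were lower (30.3%) and 6 higher (18.2%) without overlap. Mki67, the proliferation marker, had 8.38 and 8.12 in mutant AECII and 8.71 and 8.08 in WT AECII. Only Cdc20, an activator of the anaphase-promoting complex, had p under 0.05, whereas 2.25% of autosomal genes were higher at this p. It stood at 9.80 and 9.53 in mutant AECII and 8.96 and 8.63 in WT AECII. Mesenchymal genes varied within both genotypes: Col1a1, fibrillar collagen, had 9.29 and 7.05 in mutant AECII and 9.28 and 6.15 in WT AECII, and the 28 genes of the list averaged 7.48 and 6.19 in mutant AECII and 7.35 and 6.43 in WT AECII. Hba-a1, an alpha globin of red cells, had 14.94 and 14.91 in mutant AECII and 15.21 and 11.84 in WT AECII, so WT replicate 2 stood apart. Of 21 endothelial genes 1 was higher and 1 lower without overlap (4.76% each, against 17.5% and 18.2% of autosomal genes). The part of these cells in the values above was not tested.

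Whether the differences in AECII recurred in AECI was read from the other 4 arrays, which the AECII comparison did not use except for the estimate of the spread. Of 215 autosomal genes with p under 0.01 in AECII, 35 had p under 0.05 in the same direction in AECI (10 higher and 25 lower in mutant cells) and 3 in the opposite direction; in AECI itself 1 autosomal gene passed the adjusted test (0.00423%) and 7.55% had an unadjusted p under 0.05 in either direction. Because both tests share the spread of each gene, a gene picked for a small p in AECII tends to have a smaller p in AECI too. The 35 genes are therefore not to be read against the 7.55%. Of the 35, 9 were bright. Homer2, a scaffold of postsynaptic and epithelial signalling, had 12.54 and 12.81 in mutant AECII and 11.56 and 11.64 in WT AECII, and 12.93 and 13.19 in mutant AECI and 11.86 and 12.33 in WT AECI, but its other bright spot gave 0.20 in AECII. Nr3c2 had log2 fold changes of 1.14 in AECII and 1.05 in AECI, Cebpd 0.94 and 0.87, and Neat1 1.24 and 0.73. In the negative direction Rec8 had -1.36 in AECII and -1.51 in AECI, Sh3bgrl2 -1.21 and -1.28, and Cd74 -1.14 and -1.65. Cacna1s, a calcium channel subunit of skeletal muscle, and the unnamed gene model Gm3772 completed the 9. In both populations the mutant arrays were those with low Xist and high Uty.

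**Figure D5:**
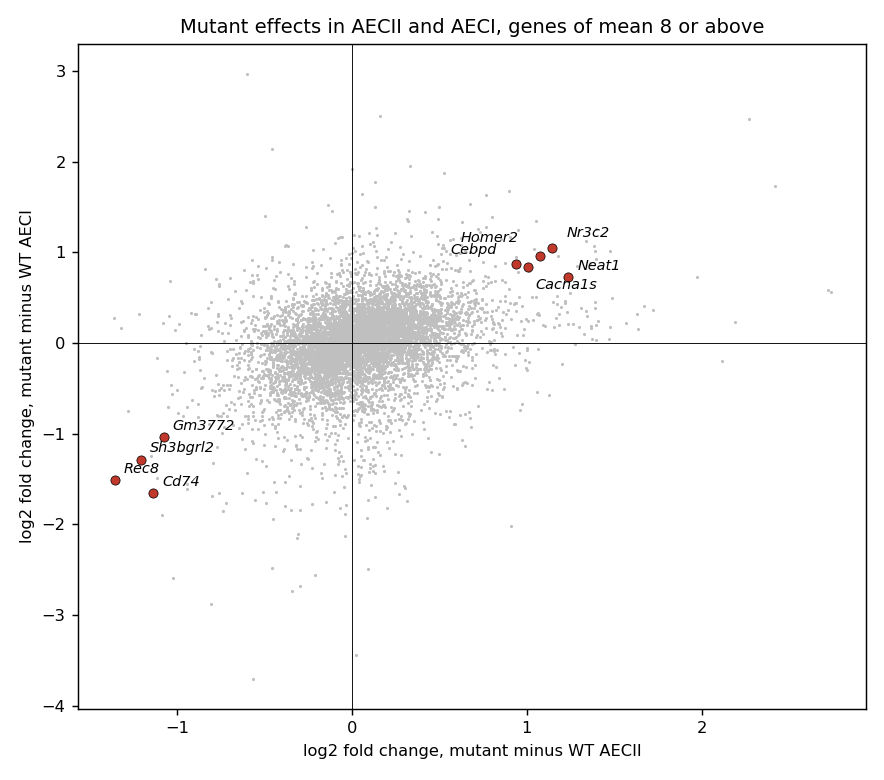
Log2 fold change of mutant over WT in AECII (horizontal axis) and in AECI (vertical axis), 1 point per bright autosomal gene. The 9 labelled genes had p under 0.01 in AECII and under 0.05 in the same direction in AECI; across all bright genes the effects correlated with r = 0.323.

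The AECI markers had a median log2 fold change of 0.632 in AECII and 0.247 in AECI, where several lie close to the top of the scale. The AECII markers had medians of 0.02 in AECII and -0.637 in AECI. For the MHC class II genes, Cd74 among them, the medians were -0.652 in AECII and -0.072 in AECI. The difference of the mutant effects was tested gene by gene in the same fit. No autosomal gene passed in limma (0 of 23626, 0.0%, smallest limma adjusted p = 0.999), and 1112 (4.71%) had an unadjusted p under 0.05. No mutant effect was therefore shown to be particular to AECII. Across autosomal genes the effects in the 2 populations correlated with r = 0.129, or 0.323 in bright genes, as a description over genes that are not independent. The share of genes with p under 0.05 in AECII lay between 3.68% on chromosome 8 and 5.2% on chromosome 14, so no autosome stood far from the 4.36% of all.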

How the data were processed

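RNA of sorted AECI and AECII was amplified, labelled with Cy5 and hybridised to 1-colour arrays (8 arrays, 2 per group). The authors deposited normalized log2 signals, and every array held the same quantiles. Per the labels, limma was used, with no version. Background correction, spot filters, slides and detection limits are unknown here, so dim signals have no stated floor, and quantile-like scaling removes any change in total RNA.

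Of 62976 spots, 43941 had 1 gene symbol in the platform annotation, 0 several and 19035 none. The accessions of 33708 named spots matched a RefSeq gene (GRCm38.p6), 965 symbols were updated, and 57 named spots with missing values were left out. Each gene was read from its brightest spot over the 8 arrays (13616 of 24568 genes had only 1). On X or Y lay 922 genes, 11 were mitochondrial, 6 had no single chromosome and 3 lay on other sequences.

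All 8 arrays entered 1 linear model of the 4 group means in limma 3.58.1 (R 4.3.3; lmFit, then eBayes with its default prior, two-sided). P-values of all 24568 genes were adjusted together by the Benjamini-Hochberg method, and a gene was called where the adjusted value lay under 0.05. Residual degrees of freedom were 4 and prior degrees of freedom 2.87. The AECI arrays thus share the estimate of the spread, and the number of arrays limits the precision. Counts and medians of 44 gene lists were read against all autosomal genes or against bright genes, as named beside each share. Some lists read against bright genes also hold dimmer members, as the YAP/TAZ and TEAD targets do, with 18 of 26 bright. The naming rule took up to 12 genes per direction with p under 0.01, no overlap and a mean of 8 or above in the higher group, up to 8 per direction read by several bright spots, 4 members per list by smallest p, and a set of genes of FGF signalling, alveolus and airway. The text names some of these, and other list members were picked after their values were seen. Members, lists, rules and tests were chosen with earlier results of these data known.

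Alternatives changed 1 choice at a time. They covered normalization (quantile, or centring on the median), filters (dropping the lowest 25% or 50% of genes), averaging a gene's spots, the prior (trended and robust), weights per array, a fit of the 4 AECII arrays alone, a block for the replicate number, each array left out, adjustment over autosomal genes and an adjusted p under 0.1. Python 3.11.15, pandas 2.3.3 and matplotlib 3.10.9 made tables and plots.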

Additional observations from a re-analysis of the deposited data

How the results depend on the processing

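The count of 0 autosomal genes called held in every alternative that kept all AECII arrays. Leaving out 1 array gave 0 to 7 calls. Without Mutant_AECII replicate 1 there were 7, each high only in Mutant_AECII replicate 2, as Lce3a was (3.344 and 12.074 in mutant, 3.022 and 2.871 in WT AECII). Without WT_AECII replicate 1 there were 3, Casr, Catsper1 and Klre1, each high only in WT_AECII replicate 2. The difference of effects between AECII and AECI gave 0 to 1 calls when 1 array was left out (Catsper1, without WT_AECII replicate 1). A lone array left in a group was taken to vary like the other groups. Against 1030 autosomal genes at an unadjusted p under 0.05, there were 578 without the lowest 50% of genes and 207 among genes of mean 8 or above (an alternative chosen after seeing the data), both of which test fewer genes, 1354 with array weights, 1268 with the AECII arrays alone, and 736 to 1267 with 1 array left out. Over all autosomal genes, same-numbered mutant and WT AECII arrays did not deviate together (r = 0.016). Some lists did, such as the mesenchymal genes, with means of 7.484 and 6.186 in mutant AECII and 7.354 and 6.435 in WT AECII. Others did not, such as the AECI markers, with 9.728 and 10.139 in mutant AECII and 9.217 and 9.031 in WT AECII. Whether same-numbered samples share more than a number was not tested. The fit with the replicate block gave 0 called genes, 960 at an unadjusted p under 0.05, and 0 for the difference of effects. Over the 127 genes followed from the report, 2226 of 2269 log2 fold changes under alternatives kept their direction and none passed the threshold. Over the alternatives the median of the AECI markers lay between 0.479 and 0.837, that of the immediate early and stress genes between 0.324 and 0.438, and that of the MHC class II genes between -0.966 and -0.158. The sign turned in the other gene values, all of genes not called, and the cause was not tested. With quantile normalization these were Dusp6 (-0.027), Junb (-0.082), Sftpa1 (-0.1), Sftpd (-0.001) and Spry1 (-0.008), with median centring Elf5 (0.013) and Foxj1 (0.035), and with a gene's spots averaged Ciita (0.169), Elf5 (0.563), Fgf10 (-0.112), Grin2b (0.075), Limch1 (-0.044), Sox9 (0.049) and Spry2 (-0.104). With 1 array left out, the lowest and highest log2 fold changes spanned 0 for Cebpa (-0.067 to 0.217), Col1a1 (-1.108 to 2.024), Cyp2f2 (-0.049 to 0.31), Dusp6 (-0.104 to 0.184), Elf5 (-0.218 to 0.171), Fgf10 (-0.192 to 0.355), Foxj1 (-0.398 to 0.396), H2-Eb1 (-1.367 to 0.195), Hba-a1 (-0.287 to 3.082), Igfbp2 (-0.135 to 0.319), Junb (-0.134 to 0.146), Lamp3 (-0.032 to 0.403), Limch1 (-0.075 to 0.602), Mki67 (-0.462 to 0.169), Ptprc (-0.226 to 0.082), Pxdc1 (-0.061 to 1.146), S100a6 (-0.011 to 0.527), Sftpa1 (-0.108 to 0.168), Sox9 (-0.438 to 0.069), Spry1 (-0.073 to 0.115) and Spry2 (-0.071 to 0.452). Groups of 2 arrays and unknown detection limits bound what can be read from dim spots.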
